A study of Mus musculus with 9 samples.

Results

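The 37 genes described here encode the glucose transporters, the glycolytic enzymes, lactate dehydrogenase, the pyruvate dehydrogenase complex and the tricarboxylic acid (TCA) cycle enzymes of mouse brain. They were taken by name from the 21853 protein-coding genes measured. All 37 were found, and all passed the filter on low values (10 or more in 3 or more of the 9 libraries), as did 15411 genes in all. They fall into 2 transporters, 15 glycolytic enzymes, 2 lactate dehydrogenase subunits, 5 genes of pyruvate entry into the mitochondrion and 13 TCA cycle genes.

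The study sequenced poly(A)-selected RNA from mouse brain in 9 libraries, 3 in each of 3 groups. HD-WNT5B libraries came from N171-82Q mice, a transgenic model of Huntington's disease (HD), given the virus pAAV-GFAP(pro)-WNT5B-P2A-mCherry. HD-Control libraries came from N171-82Q mice given pAAV-GFAP(pro)-Control-mCherry. WT-Control libraries came from wild-type mice given that same control virus. All 3 groups thus received an adeno-associated virus carrying mCherry behind the GFAP promoter, which is used to target astrocytes, and no uninjected group was measured. The tissue label is brain with no region, and the virus went into the striatum according to the design text. The labels give no age, no sex and no animal for any library, so p-values measure the spread between these libraries, which may be technical.

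Glycolysis splits glucose into pyruvate in the cytosol. Pyruvate is then reduced to lactate, or enters the mitochondrion, where pyruvate dehydrogenase turns it into acetyl-CoA for the TCA cycle. In brain, astrocytes are known for high glycolysis and lactate export, and neurons for oxidising pyruvate and lactate in the TCA cycle. Several steps have isozymes that differ between these cell types and in how they are regulated.

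Values are the authors' normalized read counts, with the libraries put on one scale and no division by gene length. By the smallest step between low values, the libraries hold 37.3 to 52.1 M reads in HD-WNT5B, 69.8 to 90.6 M in HD-Control and 67.8 to 77.8 M in WT-Control. The HD-WNT5B libraries stood apart from the other 6. They had 14291 to 14588 genes above 0, against 17223 to 17349 in HD-Control and 17027 to 17132 in WT-Control. Their summed values were 79.9 to 83.8 M, against 55.6 to 55.8 M in HD-Control and 54.6 to 54.7 M in WT-Control. Pairs of replicates varied by 37.3 to 39.1 times the variance of read counting in HD-WNT5B, 1.75 to 2.09 times in HD-Control and 1.73 to 3.18 times in WT-Control. Fold changes of HD-WNT5B also ran with transcript length: against HD-Control, the median log2 fold change was 2.02 for the 769 genes with transcripts under 1 kb and -0.89 for the 5350 genes of 4 kb or more. Mouse Wnt5b had 184, 22.5 and 212 normalized read counts in HD-WNT5B libraries, 63.8, 44.2 and 49.3 in HD-Control and 74.6, 63.8 and 57.7 in WT-Control. In the library labelled HD-WNT5B replicate 2 it was thus below all 6 control libraries. The species of the WNT5B insert is not given in the sources used here, so this row may not count the transcript of the virus. Neuron, astrocyte and striatal projection neuron markers were above 0 in every group, in 14 of 14, 16 of 16 and 14 of 14 genes.

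Replicates scattered more in HD-WNT5B than in both control groups. Log2 values of the 37 genes had a median SD of 0.106 in HD-WNT5B, 0.013 in HD-Control and 0.019 in WT-Control libraries. Together they held 0.978% to 1.11% of the summed value in HD-WNT5B, 1.23% to 1.24% in HD-Control and 1.20% to 1.21% in WT-Control. The HD-WNT5B shares lay below those of both control groups. The summed values they are shares of were larger in HD-WNT5B, as given above. A lower share there thus does not mean a lower sum of the members on the deposited scale. The glycolytic enzymes alone held 0.663% to 0.7499% in HD-WNT5B, 0.833% to 0.840% in HD-Control and 0.820% to 0.838% in WT-Control. The glucose transporters held 0.0081% to 0.0112% in HD-WNT5B, 0.0340% to 0.0344% in HD-Control and 0.0243% to 0.0247% in WT-Control. Pyruvate entry genes held 0.0419% to 0.0475% in HD-WNT5B, 0.0667% to 0.0673% in HD-Control and 0.0599% to 0.0611% in WT-Control. TCA cycle genes held 0.205% to 0.234% in HD-WNT5B, 0.2321% to 0.2326% in HD-Control and 0.227% to 0.229% in WT-Control. Here HD-WNT5B overlapped with each control group, while the control groups did not overlap. Lactate dehydrogenase held 0.0565% to 0.0644% in HD-WNT5B, 0.0616% to 0.0625% in HD-Control and 0.0615% to 0.0631% in WT-Control, and all groups overlapped.

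Per kb of the longest coding transcript, the highest level of WT-Control libraries was that of the aldolase Aldoa (47206 normalized read counts per kb). Gapdh, the dehydrogenase of the oxidative step of glycolysis, followed at 43229 per kb, and the pyruvate kinase Pkm at 27982 per kb. Among TCA cycle genes, the malate dehydrogenases Mdh1, cytosolic, and Mdh2, mitochondrial, were highest at 15102 and 8183 per kb. The hexokinase Hk2 was lowest at 59.7 per kb, while Hk1, the main hexokinase of brain, stood at 3579 per kb.

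In HD-Control against WT-Control libraries, members went both ways by small amounts, and 4 differed by 1.5-fold or more. Slc2a1 rose, and Ogdh, Pfkl and Ldha fell. This comparison addresses what the N171-82Q genotype changes under the control virus. The labels name no animal, so an effect of genotype cannot be told apart here from other differences between the groups' animals or libraries. By limma on log2(value + 3), with Benjamini-Hochberg adjustment over all genes tested, 19 members were higher, 15 were lower and 3 (Pgam1, Sucla2 and Suclg1) did not pass adjusted p 0.05. Over all 15411 genes, 83.8% were called, 43.5% higher and 40.2% lower, so the members' 34 of 37 stand at about the share of all genes. At 1.5-fold or more, 4 of 37 members were called, 1 higher and 3 lower, against 33% of all genes, 15.1% higher and 17.9% lower. The members' median log2 fold change was 0.082, beside 0.020 over all genes, and their median absolute log2 fold change was 0.25, beside 0.39. The replicates of both groups did not overlap in 34 members, as in 84% of all genes. When the spread was shared over all 9 libraries, 15 members were higher and 9 lower, while 45.1% of all genes were called, and the calls of Hk1, Hk2, Pgk1, Pdha1, Pdhb, Cs, Idh3g, Dlst, Suclg2 and Fh1 are lost. In bulk tissue, fewer cells of a type and less RNA per cell cannot be told apart.

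**Figure D1:**
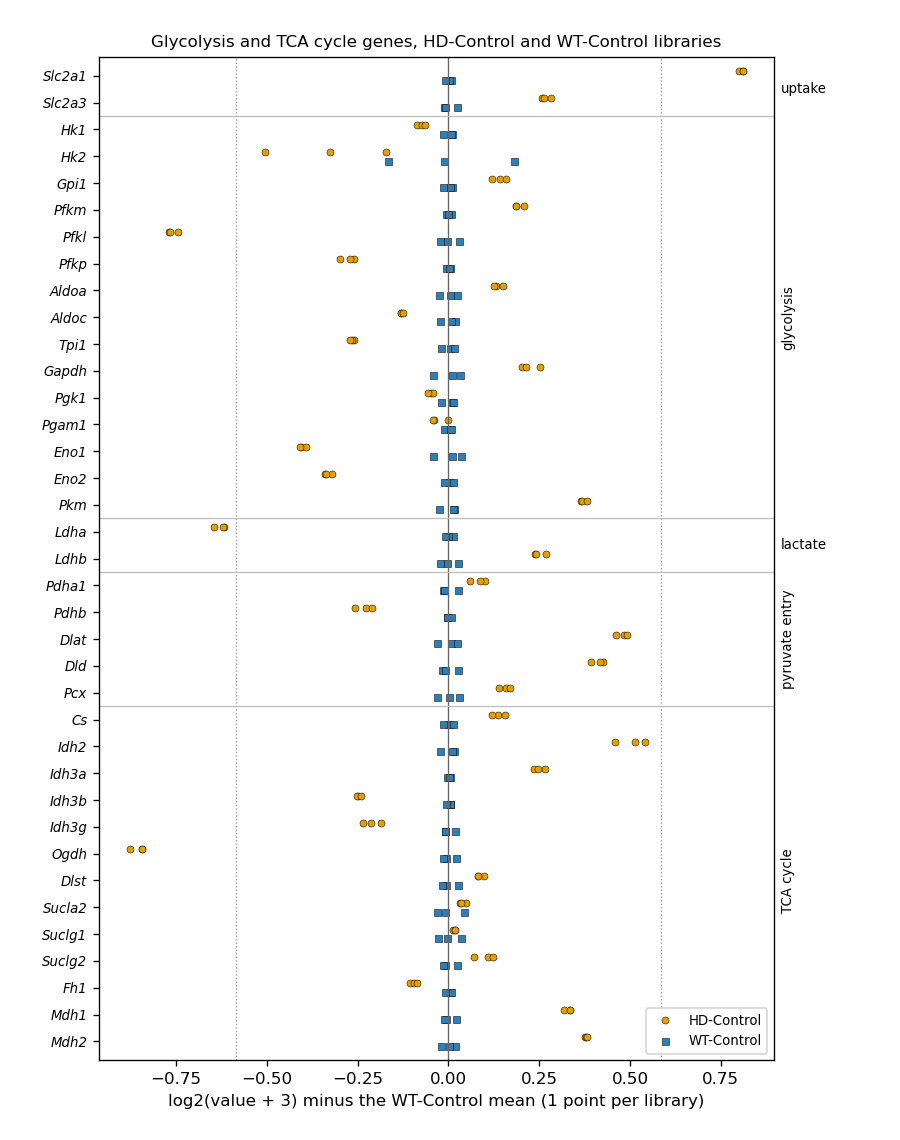
Each gene's log2(value + 3) minus its mean in WT-Control libraries (horizontal axis, log2 units), 1 point per library, HD-Control as circles above WT-Control as squares, with genes in pathway order. Dotted lines mark 1.5-fold. Slc2a1 lies to the right of them at 0.81 and Pfkl, Ldha and Ogdh to the left at -0.76, -0.63 and -0.86. Suclg1, with a log2 fold change of 0.016, lies near 0, and its sign turns when all libraries are scaled to equal totals (-0.010).

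The glucose transporters were both higher in HD-Control. Slc2a1 (GLUT1, the transporter of endothelium and astrocytes, chr4:119108711-119137983 in mm10) had 9462, 9549 and 9546 normalized read counts in HD-Control libraries, against 5468, 5443 and 5399 in WT-Control. The 3 HD-Control libraries lay far above all WT-Control libraries, and the groups did not overlap. Its log2 fold change was 0.81 (SE 0.018, limma adjusted p = 6.1e-19), the largest rise of any member. Slc2a3 (GLUT3, the neuronal transporter) averaged 9533 ± 81.2 in HD-Control and 7917 ± 112 in WT-Control (SD, n = 3 each), a log2 fold change of 0.27.

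Of the 15 glycolytic enzymes, 5 were higher, 9 lower and 1 not called. The phosphofructokinase subunits, which form the enzyme of the committed step, moved apart. Pfkl (the liver-type subunit, chr10:77986947-78010083) had 4141, 4209 and 4151 normalized read counts in HD-Control libraries, against 7205, 7039.6 and 6945 in WT-Control. All HD-Control libraries were lower than all WT-Control libraries, and the log2 fold change was -0.76 (SE 0.021, limma adjusted p = 1.4e-17). Pfkp, the platelet-type subunit, also fell (log2 -0.28), while Pfkm, the muscle-type subunit, rose (log2 0.19).

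Both enolases fell in HD-Control, Eno1 by 0.40 and Eno2, the neuron-specific enolase, by 0.33 on the log2 scale. Eno2 averaged 45622 ± 311 normalized read counts in HD-Control and 57458 ± 493 in WT-Control. Triose phosphate isomerase Tpi1 fell by 0.27 and Aldoc, the aldolase of astrocytes, by 0.13. Hk1 fell by 0.075. The phosphoglycerate kinase Pgk1 fell by 0.050, a call that is lost without WT-Control replicate 1, WT-Control replicate 2 or HD-Control replicate 3 (limma adjusted p = 0.051, 0.064 and 0.058). Hk2 had 230.1 to 290.6 in HD-Control and 291.4 to 371 in WT-Control libraries (log2 -0.33, SE 0.094), the lowest counts and the widest relative scatter of any member. The genes that rose were Pkm (log2 0.37), Gapdh (0.22), Pfkm (0.19), the glucose phosphate isomerase Gpi1 (0.14) and Aldoa (0.14). The phosphoglycerate mutase Pgam1 averaged 5434 ± 87.2 in HD-Control and 5544 ± 42.1 in WT-Control and was not called (log2 -0.029), though it was with equal totals (-0.055, limma adjusted p = 0.019) and with a trend on transcript length and GC content taken out (-0.061, 0.0027).

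The lactate dehydrogenase subunits went opposite ways. Ldha, the subunit that favours lactate formation (chr7:46841475-46855627), had 7050.0, 7188 and 7165 normalized read counts in HD-Control libraries, against 11128, 11019 and 10949 in WT-Control. The HD-Control values were all lower, with no overlap, and the log2 fold change was -0.63 (SE 0.018, limma adjusted p = 1.9e-17). Ldhb, the subunit that favours lactate use, had 27713, 27146 and 27196 in HD-Control, against 23430.3, 22649 and 22941 in WT-Control. Here all HD-Control libraries were higher (log2 0.25, SE 0.016, limma adjusted p = 7.7e-12).

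At pyruvate entry, 4 of 5 genes were higher. Dlat and Dld, which encode the acetyltransferase (E2) and dihydrolipoyl dehydrogenase (E3) of the pyruvate dehydrogenase complex, rose by log2 0.48 and 0.41. Dlat averaged 5743 ± 61.8 normalized read counts in HD-Control and 4119 ± 83.6 in WT-Control. Of the E1 subunits, Pdha1 rose slightly (log2 0.082) and Pdhb fell (log2 -0.23). Pcx, the pyruvate carboxylase of astrocytes that refills the TCA cycle, rose by log2 0.16.

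Of the 13 TCA cycle genes, 7 were higher, 4 lower and 2 not called. Ogdh, the E1 subunit of oxoglutarate dehydrogenase (chr11:6291633-6356642), had 11136, 11406 and 11398 normalized read counts in HD-Control libraries, against 20765, 20388 and 20274 in WT-Control. HD-Control libraries lay far below WT-Control libraries, and the log2 fold change of -0.86 (SE 0.017, limma adjusted p = 6.1e-20) was the largest fall of any member. Dlst, the E2 subunit of that complex, rose by 0.087 on the log2 scale. Isocitrate dehydrogenase split as well: Idh2, the NADP-dependent mitochondrial enzyme, rose by log2 0.51, Idh3a by 0.25, and the other NAD-dependent subunits Idh3b and Idh3g fell by 0.25 and 0.21. Mdh2 and Mdh1 rose by log2 0.38 and 0.33, citrate synthase Cs by 0.14 and Suclg2, the GDP-forming subunit of succinate-CoA ligase, by 0.10. Fumarase Fh1 fell by 0.096. Sucla2, the ADP-forming subunit, averaged 6906 ± 45.7 in HD-Control and 6727 ± 177 in WT-Control. The shared subunit Suclg1 averaged 4338 ± 9.35 in HD-Control and 4289.8 ± 95.4 in WT-Control, and neither was called. The call of Suclg2 is lost without HD-Control replicate 2 (limma adjusted p = 0.065), with equal totals (0.075) and with the length and GC trend taken out (0.0504), and without WT-Control replicate 3 Sucla2 is called (0.0055).

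Upstream sequence is shown for the 4 members that differed by 1.5-fold or more, since glycolytic promoters are known for the core motif of the hypoxia response element, ACGTG. Each run is the 250 bases before the start in the RefSeq promoter table (GRCm38.p6), 5′ to 3′ on the gene's strand: Slc2a1 chr4:119108495-119108744 (plus), Ogdh chr11:6291409-6291658 (plus, 1 of 6 annotated starts), Ldha chr7:46845554-46845803 (plus, 1 of 2) and Pfkl chr10:78009808-78010057 (minus). Capitals mark ACGTG on either strand, so the reverse strand reads CACGT and a run CACGTG holds both.
Slc2a1: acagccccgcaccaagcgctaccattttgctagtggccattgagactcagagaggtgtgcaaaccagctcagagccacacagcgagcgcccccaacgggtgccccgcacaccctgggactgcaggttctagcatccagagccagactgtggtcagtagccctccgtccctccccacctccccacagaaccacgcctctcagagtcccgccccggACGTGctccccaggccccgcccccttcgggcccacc
Ogdh: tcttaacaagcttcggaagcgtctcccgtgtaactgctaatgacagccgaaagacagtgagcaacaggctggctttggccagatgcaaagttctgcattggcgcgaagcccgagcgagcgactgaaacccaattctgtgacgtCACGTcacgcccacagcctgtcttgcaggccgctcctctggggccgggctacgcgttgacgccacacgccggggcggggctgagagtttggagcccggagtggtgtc
Ldha: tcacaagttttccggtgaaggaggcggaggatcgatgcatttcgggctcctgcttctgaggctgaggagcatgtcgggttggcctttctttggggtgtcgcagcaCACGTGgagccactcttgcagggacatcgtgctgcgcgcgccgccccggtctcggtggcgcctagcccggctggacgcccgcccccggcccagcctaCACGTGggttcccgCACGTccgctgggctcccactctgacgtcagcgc
Pfkl: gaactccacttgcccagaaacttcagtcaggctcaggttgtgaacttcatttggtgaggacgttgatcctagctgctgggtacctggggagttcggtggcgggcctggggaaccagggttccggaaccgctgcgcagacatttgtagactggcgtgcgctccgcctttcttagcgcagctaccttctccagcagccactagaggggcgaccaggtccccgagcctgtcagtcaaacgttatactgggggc
Ldha, Slc2a1 and Ogdh hold the motif in these windows, and Pfkl does not, nor does the window at the other Ldha start. In windows of 300 bases that reach 50 bases past the start, at any start of a gene, 16 of the 35 members in the table hold it (45.7%), against 21.8% of its 27025 genes. A gene with more starts has more windows that can match, and members have from 1 to 6. Of all 32851 single windows, 19.6% hold it, and the share of single member windows was not computed. The palindrome CACGTG, which contains ACGTG, was in a window of 4 of 35 (11.4%: Ldha, Ogdh, Pcx and Pfkm), against 8.09% of genes. The oestrogen-related receptor element TCAAGGTCA was in 0 of 35, against 0.466% of genes.

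Ratios between isozymes set the same library's genes against each other and do not depend on the scale of a library. They are ratios of values without division by length, so only their change between groups is read. They were not corrected for the trend with transcript length or for sequence shared with other genes. Of 8 ratios, 6 differed without overlap between HD-Control and WT-Control, where 84% of all single genes did not overlap either. Ratios of other gene pairs were not computed. An exact two-sided permutation test of 3 against 3 libraries cannot go below p = 0.1, and that was the value of each (0.126 after Benjamini-Hochberg adjustment over 24 tests). Ldha/Ldhb was 0.254, 0.265 and 0.264 in HD-Control libraries, against 0.475, 0.487 and 0.477 in WT-Control, a log2 difference of -0.88. Pfkl/Pfkm was 0.166 in all 3 HD-Control libraries, against 0.326, 0.322 and 0.317 in WT-Control (log2 -0.95). Slc2a1/Slc2a3 went the other way, with 0.999, 1.004 and 0.992 in HD-Control, against 0.680, 0.694 and 0.687 in WT-Control (log2 0.54). Pfkp/Pfkm differed by -0.47, Aldoc/Aldoa by -0.26 and Eno1/Eno2 by -0.070. Hk2/Hk1 (-0.26) and Suclg2/Sucla2 (0.062) overlapped between the groups (p = 0.2 each by the same exact test).

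**Figure D2:**
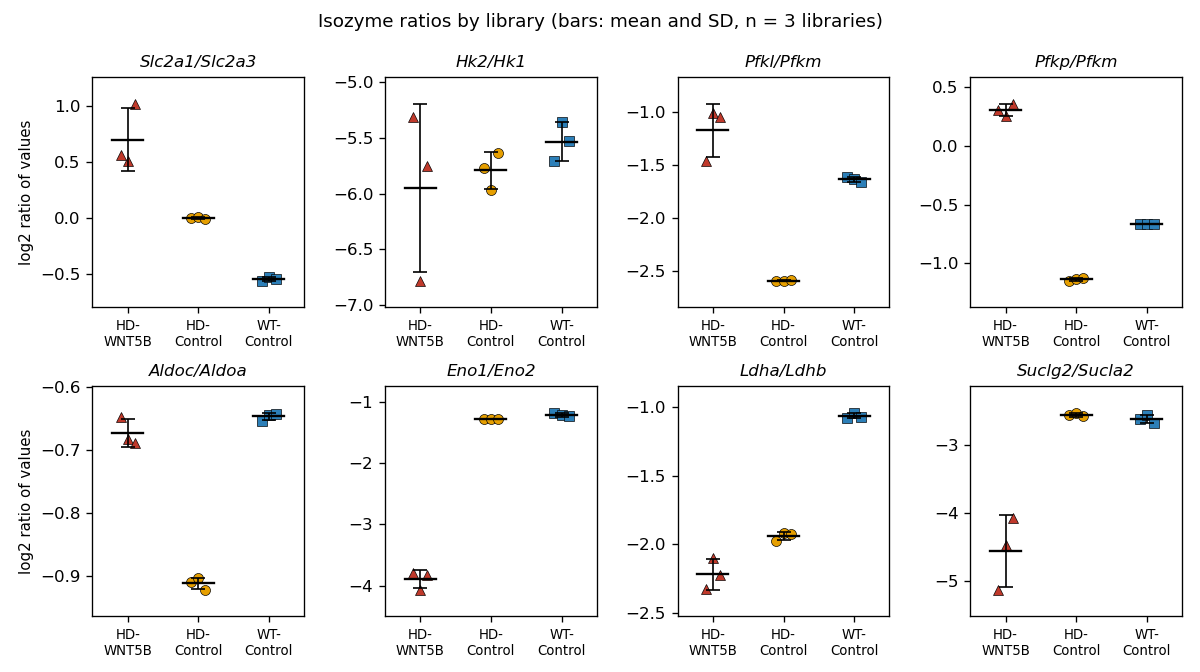
Log2 ratios of 8 isozyme pairs (vertical axes), 1 point per library, for HD-WNT5B, HD-Control and WT-Control, with mean and SD of 3 libraries. Ldha/Ldhb lies lowest in HD-WNT5B (mean -2.22), then HD-Control (-1.94), and highest in WT-Control (-1.06). Eno1/Eno2 averages -3.90 in HD-WNT5B, -1.27 in HD-Control and -1.20 in WT-Control.

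The 11 further pathway lists add the steps around these enzymes. Counts of these lists, here and below, are genes called at adjusted p under 0.05. Over all genes, 43.5% were called higher and 40.2% lower in HD-Control against WT-Control. Among lactate and pyruvate carriers, 1 of 7 was higher and 5 lower in HD-Control. Slc16a7 (MCT2, the neuronal lactate importer) averaged 629.6 ± 30 normalized read counts in HD-Control and 2639 ± 168 in WT-Control (log2 -2.06), and Bsg (basigin, a partner protein of MCT1 and MCT4) fell by 0.50. Among the pyruvate dehydrogenase component X and regulators, 8 of 11 were higher and 1 lower, among them the phosphatase Pdp1 (log2 0.43) and the lipoate synthase Lias (log2 0.88). At 1.5-fold or more, 2 of these 11 were called, against 33% of all genes. Among further hexose transporters, 2 of 8 were higher and 2 lower. Slc2a5, a fructose transporter of microglia in brain, averaged 17.9 ± 3.42 in HD-Control and 389 ± 13.9 in WT-Control (log2 -4.24). Slc2a4, the insulin-regulated GLUT4, averaged 508 ± 13.2 in HD-Control and 81.8 ± 4.21 in WT-Control (log2 2.59).

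Of the further glycolytic isozymes, 3 of 12 tested were higher and 6 lower, with Eno3, the muscle enolase, higher (log2 1.06) and the hexokinase Hk3 lower (log2 -2.27). Of the further TCA cycle genes, 6 of 14 were higher and 6 lower, with the malic enzymes Me2 and Me3 lower (log2 -1.15 and -0.61). Of the NADH shuttles, 6 of 11 were higher and 4 lower, and Gpd2, the mitochondrial glycerol phosphate dehydrogenase, fell by 0.97. Glycogen genes were higher in 5 and lower in 9 of 16, with Phkb, a subunit of phosphorylase kinase, lower (log2 -1.41). Pentose phosphate genes were higher in 2 and lower in 4 of 8, with the ribulose phosphate epimerase Rpe lower (log2 -1.45). The calls of Hk3 and Rpe are lost when the spread is shared over 9 libraries (limma adjusted p = 0.064 and 0.10). The fructose 2,6-bisphosphate and gluconeogenesis genes were higher in 1 and lower in 4 of 7, none of them by 1.5-fold.

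Among hypoxia response genes, 8 of 18 were higher and 6 lower. Vegfa, the endothelial growth factor, averaged 1912 ± 19.9 normalized read counts in HD-Control and 4954 ± 67.7 in WT-Control (log2 -1.37). Ddit4 averaged 6407 ± 42.6 in HD-Control and 2209 ± 119 in WT-Control (log2 1.54). Of the mitochondrial energy regulators, 9 of 14 were higher and 4 lower, with the glucose-sensing factor Mlxip higher (log2 0.81).

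Markers of most cell types also differed between HD-Control and WT-Control, where 43.5% of all genes were called higher and 40.2% lower. Summed over 13 microglia genes, values were 16320 to 16372 in HD-Control and 36204 to 36699 in WT-Control, with 12 of 13 genes lower. Summed over 16 astrocyte genes they were 310182 to 311681 in HD-Control and 457924 to 461929 in WT-Control, with 13 lower and 2 higher. Endothelial genes were lower in 8 of 11, with sums of 14066 to 14170.1 in HD-Control and 20798 to 20926 in WT-Control. All 12 oligodendrocyte genes were lower, with sums of 364405 to 366780.0 in HD-Control and 502977 to 507812 in WT-Control. Neuron genes were lower in 12 of 14 and striatal projection neuron genes in 10 of 14. Cortical excitatory neuron genes were lower in 9 of 10, oligodendrocyte precursor genes in 6 of 7 and red blood cell genes in 5 of 5. Choroid plexus genes were higher in 3 and lower in 1 of 7, and skeletal muscle genes higher in 1 and lower in 4 of 6. No gene of these lists was at 0 in either group. The part of these differences in those of the members was not tested.

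In HD-WNT5B against HD-Control libraries, 21 of 37 members differed by 1.5-fold or more, both ways. Gapdh, Pgk1, Pgam1 and Eno1, which catalyse 4 consecutive steps of glycolysis, fell, and so did both glucose transporters. Suclg1, Tpi1, Fh1, Gpi1 and Eno2 rose. This comparison addresses what the WNT5B virus changes in N171-82Q brain. The HD-WNT5B libraries also stood apart in depth, genes above 0, replicate scatter and the trend with transcript length. An effect of the virus cannot be told apart here from whatever set these libraries apart. By limma, 17 members were higher, 15 were lower and 5 were not called (Hk2, Aldoc, Pdhb, Idh2 and Mdh1). Over all genes, 71.9% were called, 33.9% higher and 37.9% lower. At 1.5-fold or more, 11 members were higher and 10 lower, against 63.1% of all genes, 29.6% higher and 33.5% lower. The replicates did not overlap in 34 members, as in 78.7% of all genes. The members' median log2 fold change was -0.023, beside -0.23 over all genes, and their median absolute log2 fold change was 0.78, beside 1.19. Scaling all libraries to equal totals moved the median of all genes to -0.77 and that of the members to -0.57, with 11 members higher and 22 lower. Without the library labelled HD-WNT5B replicate 2, where Wnt5b was low, 17 members were higher and 15 lower, with a median of 0.17.

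**Figure D3:**
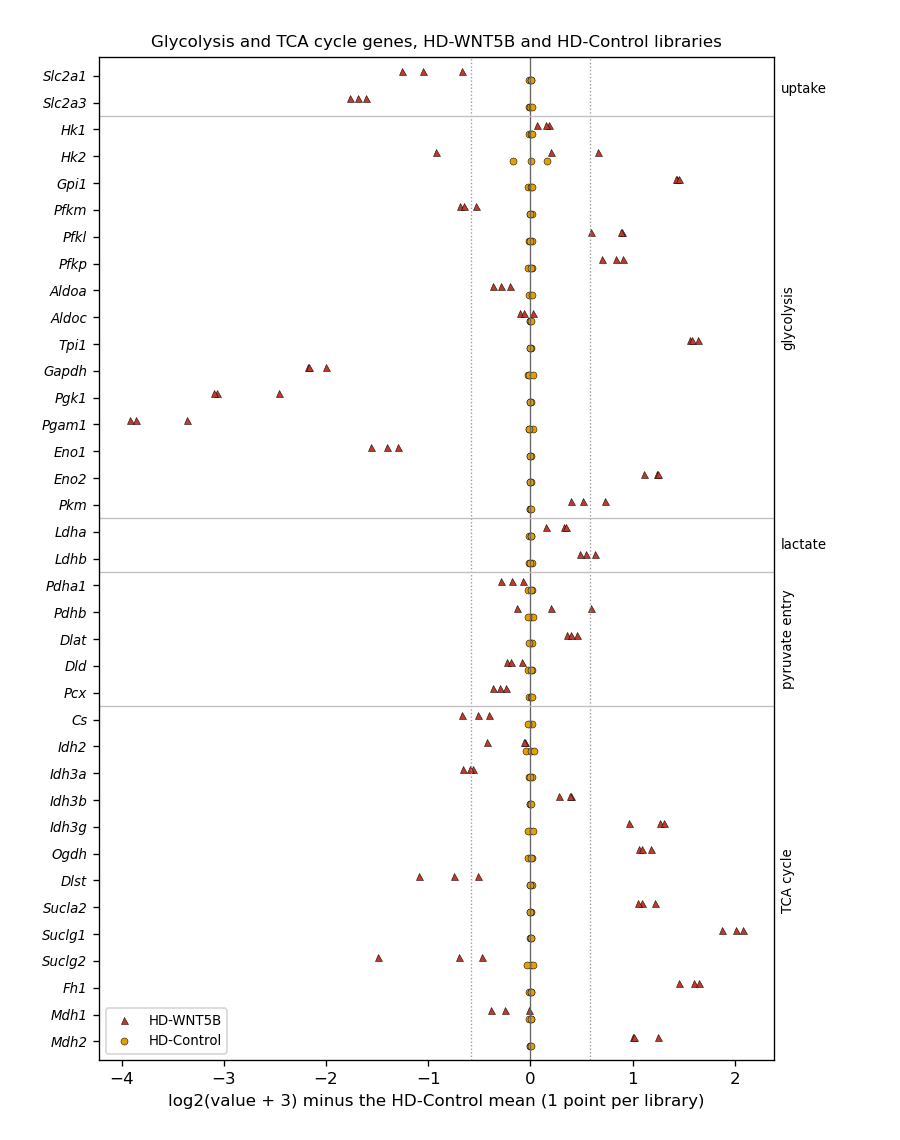
Each gene's log2(value + 3) minus its mean in HD-Control libraries (horizontal axis, log2 units), 1 point per library, HD-WNT5B as triangles above HD-Control as circles, in pathway order. Dotted lines mark 1.5-fold. Gapdh, Pgk1, Pgam1 and Eno1 lie at the left, with log2 fold changes of -2.11, -2.87, -3.72 and -1.42. With equal totals 7 genes plotted to the right of 0 turn to the left (Hk1, Pkm, Ldha, Ldhb, Pdhb, Dlat and Idh3b).

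Both glucose transporters fell in HD-WNT5B. Slc2a3 had 3116, 2803 and 2964 normalized read counts in HD-WNT5B libraries, against 9468, 9508 and 9624 in HD-Control. All HD-WNT5B libraries were far lower (log2 -1.69, SE 0.052, limma adjusted p = 8.3e-07). Slc2a1 had 4588, 3993 and 5998 in HD-WNT5B, against 9462, 9549 and 9546 in HD-Control. The groups did not overlap either, with more scatter among the HD-WNT5B libraries (log2 -0.99, SE 0.14, limma adjusted p = 0.00089).

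Along glycolysis, 7 enzymes were higher, 6 lower and 2 not called. At the top of the pathway, Gpi1 had 82416, 82128 and 83554 normalized read counts in HD-WNT5B libraries, against 30151, 30606 and 30946 in HD-Control. Its rise was 1.44 on the log2 scale (SE 0.032, limma adjusted p = 2.3e-07), with no overlap. The phosphofructokinase subunits Pfkp and Pfkl rose by log2 0.82 and 0.79, while Pfkm fell by 0.62. Aldoa fell by 0.28, while Aldoc was not called (log2 -0.046). Aldoc was called lower with equal totals (-0.60, limma adjusted p = 6.3e-05) and without HD-WNT5B replicate 3 (-0.081, 0.018), and higher with the length and GC trend taken out (0.14, 0.032). Tpi1 had 56377, 57388 and 59644 in HD-WNT5B, against 19189.5, 19148 and 19079 in HD-Control, and rose by log2 1.59. Hk1 was 0.13 higher on the deposited scale, a call that is lost without any one HD-Control library (limma adjusted p = 0.078 to 0.096), and it was at -0.42 with equal totals. Hk2 had 411, 135 and 298 in HD-WNT5B, against 261, 230.1 and 291 in HD-Control, and the groups overlapped.

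At the next 4 steps, the genes Gapdh, Pgk1, Pgam1 and Eno1 were all lower. Gapdh (chr6:125161715-125166467) had 15842, 15912 and 17938 normalized read counts in HD-WNT5B libraries, against 70636, 71168 and 73030.2 in HD-Control (log2 -2.11, SE 0.057, limma adjusted p = 4.7e-07). Pgk1 (chrX:106187100-106203699) had 961, 1463 and 941 in HD-WNT5B, against 8078, 8105 and 8034 in HD-Control (log2 -2.87, SE 0.17, limma adjusted p = 1.4e-05). Pgam1 (chr19:41911923-41918660) had 356, 371 and 525 in HD-WNT5B, against 5389, 5535 and 5379 in HD-Control. Its log2 fold change of -3.72 (SE 0.16, limma adjusted p = 3.2e-06) was the largest of any member. Eno1 (chr4:150236721-150248879) had 7131, 6399 and 7677 in HD-WNT5B, against 18857, 19016 and 18813 in HD-Control (log2 -1.42, SE 0.069, limma adjusted p = 5.5e-06). In each of these 4 genes every HD-WNT5B library lay below every HD-Control library.

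The isozymes of the last 2 of these steps went the other way. Eno2 had 98859.5, 107585 and 108713 normalized read counts in HD-WNT5B, against 45385, 45974 and 45508 in HD-Control, a rise of log2 1.20. Eno3 averaged 4672 ± 133 in HD-WNT5B and 597 ± 36.4 in HD-Control (log2 2.96). Pgam2, the muscle phosphoglycerate mutase, had 5299.8, 5840.3 and 5468 in HD-WNT5B, against 158, 147 and 159 in HD-Control (log2 5.13). Pkm rose by log2 0.55 on the deposited scale, with 116061 to 145764 in HD-WNT5B and 87697 to 88632 in HD-Control, but was at -0.0092 with equal totals and 0.18 with the length and GC trend taken out, neither of them called.

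Gapdh, Pgk1, Pgam1 and Eno1 have much sequence in common with other genes. Of the 50-base windows along the longest coding transcript, 81.9% of Gapdh, 72.2% of Eno1, 67.4% of Pgk1 and 41.6% of Pgam1 occur exactly in an annotated transcript of another gene. No other member reached 40%, and 19 of 37 had none. These 4 had a median log2 fold change of -2.49 in HD-WNT5B against HD-Control. Over all 949 tested genes at or above 40%, the median was -0.060, with wider quartiles of -1.88 and 1.44. Over the 8272 genes with no such window it was -0.22, with quartiles of -1.36 and 0.95. In HD-Control against WT-Control the same 4 had a median of -0.039. Without them, 17 members were higher and 11 lower in HD-WNT5B, with a median of 0.22. How the authors' counting treated reads that match several genes is not given in the sources used here, so the values of these 4 genes are uncertain. Its part in their fall was not tested. Eno1b, a near copy of Eno1 with 85.1% of its windows shared, had 39.4, 139.7 and 72.9 in HD-WNT5B, against 788, 752 and 748 in HD-Control.

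**Figure D4:**
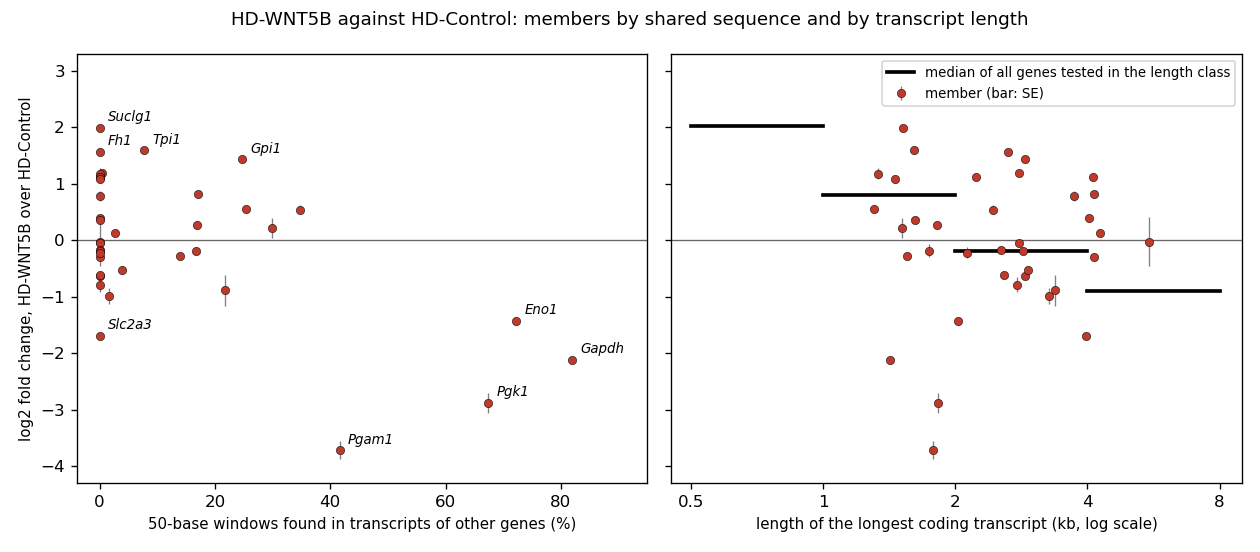
Log2 fold change of HD-WNT5B over HD-Control (vertical axis) for each of the 37 members, with its SE, against the percentage of 50-base windows found in other genes' transcripts (left) and against transcript length in kb on a log scale (right). The 4 genes above 40% on the left lie between -3.72 and -1.42. Black bars on the right give the median of all genes tested in 4 length classes, 2.02 at under 1 kb and -0.89 at 4 kb or more, and the 6 members of 4 kb or more have a median of 0.27.

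Since fold changes of HD-WNT5B ran with transcript length over all genes, the members are given by length class. The 13 members with transcripts of 1 to 2 kb had a median log2 fold change of 0.28, beside 0.81 over the 3002 genes of that class. The 18 members of 2 to 4 kb stood at -0.20, beside -0.18 over 6290 genes. The 6 members of 4 kb or more stood at 0.27, beside -0.89 over 5350 genes, and none was under 1 kb. Gapdh, Pgk1, Pgam1 and Suclg1 are all of 1 to 2 kb (1.42, 1.82, 1.77 and 1.52 kb), and their log2 fold changes ran from -3.72 to 1.99. After a length and GC trend was taken out of each library, 16 members were higher and 13 lower, while 66.3% of all genes were called, and the median was 0.10 for the members and 0.072 for all genes. Some called members moved by over 1.5 times in that step. Gapdh (log2 -3.06), Slc2a3 (-1.04), Aldoa (-1.14), Pfkp (1.52), Dlat (1.20), Idh3g (0.48) and Mdh2 (0.25) were still called with the same sign. Ldhb (-0.25), Pdha1 (0.45) and Dld (0.59) turned sign, and Suclg2 (-0.068) was no longer called.

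Lactate dehydrogenase and pyruvate entry moved less. On the deposited scale Ldhb and Ldha rose by log2 0.55 and 0.28, but with equal totals they were at -0.00031 and -0.28, and with the length and GC trend taken out at -0.25 and 0.035. Dlat rose by log2 0.40 on the deposited scale and was at -0.15 with equal totals. Pcx fell by 0.30, with 5450.1, 5719.9 and 5987 normalized read counts in HD-WNT5B, against 6958, 7059.7 and 7103 in HD-Control. Pdha1 fell by 0.18 and Dld by 0.17 on the deposited scale, and they were at 0.45 and 0.59 with the length and GC trend taken out. Both calls are lost without any one HD-Control library (limma adjusted p = 0.063 to 0.11), and that of Pdha1 also without HD-WNT5B replicate 1 (0.074). Pdhb had 3974, 4987 and 6566 in HD-WNT5B, against 4351, 4409 and 4267 in HD-Control, and the groups overlapped. Without HD-WNT5B replicate 1 it was called (log2 0.40, limma adjusted p = 0.034).

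The TCA cycle had 7 genes higher, 4 lower and 2 not called. The succinate-CoA ligase subunits moved apart. Suclg1 (chr6:73248382-73276911) had 15898, 18403 and 17552 normalized read counts in HD-WNT5B libraries, against 4327, 4342 and 4345 in HD-Control. HD-WNT5B libraries were all far higher, and the rise of log2 1.99 (SE 0.060, limma adjusted p = 7.4e-07) was the largest of any member. Sucla2 rose by log2 1.12, with 14338 to 16085 in HD-WNT5B and 6877 to 6958 in HD-Control. Suclg2 had 415, 719.6 and 843 in HD-WNT5B, against 1177, 1189 and 1146 in HD-Control, and fell by 0.89 (SE 0.27, limma adjusted p = 0.024). Its call is lost when any one HD-Control library is left out (limma adjusted p = 0.071 to 0.077), and it was at -0.068 with the length and GC trend taken out.

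Fh1 averaged 7192 ± 497 normalized read counts in HD-WNT5B and 2422 ± 15.8 in HD-Control, a rise of log2 1.57. Ogdh averaged 24529.9 ± 1069 in HD-WNT5B and 11313 ± 154 in HD-Control, a rise of log2 1.12, while its partner subunit Dlst fell by 0.78. Idh3g rose by log2 1.18 and Idh3a fell by 0.60. Idh3b rose by log2 0.36 on the deposited scale but was at -0.20 with equal totals and -0.081 with the length and GC trend taken out. Mdh2 averaged 33047 ± 3361 in HD-WNT5B and 15492 ± 28.8 in HD-Control (log2 1.09, and 0.25 with the length and GC trend taken out). Cs averaged 10882 ± 994 in HD-WNT5B and 15645 ± 205 in HD-Control and fell by 0.53, a call that is lost with the length and GC trend taken out (log2 -0.19, limma adjusted p = 0.073). Idh2 and Mdh1 were at -0.18 and -0.22 and were not called, though Mdh1 was without HD-WNT5B replicate 3 (limma adjusted p = 0.0021). Both were called with equal totals (log2 -0.73 and -0.77). With the length and GC trend taken out, Idh2 was called lower (log2 -0.78, limma adjusted p = 0.0032), while Mdh1 was at 0.10 and not called.

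Isozyme ratios in HD-WNT5B and HD-Control did not overlap in 7 of 8 pairs, each at p = 0.1, the smallest that the exact two-sided permutation test allows (0.126 after adjustment). Of all single genes, 78.7% did not overlap between these groups. Eno1/Eno2 was 0.0722, 0.0595 and 0.0706 in HD-WNT5B libraries, against 0.416, 0.414 and 0.413 in HD-Control (log2 -2.62). Suclg2/Sucla2 was 0.0284, 0.0449 and 0.0590 in HD-WNT5B, against 0.169, 0.173 and 0.167 in HD-Control (log2 -2.01). Pfkp/Pfkm was 1.24, 1.19 and 1.28 in HD-WNT5B, against 0.451, 0.456 and 0.460 in HD-Control (log2 1.44). Pfkl/Pfkm differed by 1.42, Slc2a1/Slc2a3 by 0.70, Ldha/Ldhb by -0.28 and Aldoc/Aldoa by 0.24. Hk2/Hk1 overlapped between the groups (log2 -0.16, exact p = 0.9). Paired genes can differ in transcript length, with Suclg2 at 3.4 kb and Sucla2 at 2.2 kb, and Pfkp at 4.1 kb and Pfkm at 2.9 kb. Eno1 has 72.2% of its windows in transcripts of other genes. The part of either in these ratios was not tested.

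Around these enzymes, list counts stand beside 33.9% of all genes called higher and 37.9% lower in HD-WNT5B against HD-Control. Bsg averaged 58334 ± 3777 normalized read counts in HD-WNT5B and 13107 ± 94.1 in HD-Control (log2 2.15). Mpc2, a subunit of the mitochondrial pyruvate carrier, rose by log2 2.96, and 3 of 7 lactate and pyruvate carriers were higher and 2 lower. Of the pyruvate dehydrogenase component X and regulators, 3 of 11 were higher, Lias among them (log2 2.41), and 6 lower, Pdp1 among them (log2 -1.41, and -0.19 and not called with the length and GC trend taken out). Of the further TCA cycle genes, 6 of 14 were higher and 6 lower. Ogdhl among them rose by log2 1.89. NADH shuttles were higher in 6 and lower in 4 of 11, with Slc25a12 higher (log2 0.86) and Slc25a22 lower (log2 -1.43). Pentose phosphate genes were higher in 5 and lower in 2 of 8, with Pgls (log2 3.65) and Taldo1 (log2 2.81) higher. Only Pdp1 is given here with the length and GC trend taken out. All other log2 fold changes in this and the next paragraph are on the deposited scale, with that trend left in.

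Glycogen genes were higher in 7 and lower in 6 of 16, with Phkg1 and Phkg2, catalytic subunits of phosphorylase kinase, higher (log2 2.40 and 1.83). Further hexose transporters were higher in 3 and lower in 3 of 8, with Slc2a6 higher (log2 2.88) and Slc2a13, which carries myo-inositol, lower (log2 -2.54). Further glycolytic isozymes were higher in 4 and lower in 4 of 12. The fructose 2,6-bisphosphate and gluconeogenesis genes were higher in 2 and lower in 2 of 7, with Pck2 higher (log2 2.87) and Pfkfb2 lower (log2 -3.04). Hypoxia response genes were higher in 6 and lower in 10 of 18, with P4ha1 (log2 2.76) and Ankrd37 (log2 3.33) higher. Mitochondrial energy regulators were higher in 2 and lower in 6 of 14, with Esrra higher (log2 1.47) and Mlxip lower (log2 -2.48).

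Every cell type list here, except those of microglia and red blood cells, held called genes in both directions. Over all genes, 33.9% were called higher and 37.9% lower. Endothelial genes summed to 45330.5 to 53113 in HD-WNT5B and 14066 to 14170.1 in HD-Control, with 5 of 11 higher and 3 lower. Microglia genes summed to 50325 to 56405 in HD-WNT5B and 16320.0 to 16372 in HD-Control, with 7 of 13 higher and 0 lower. Astrocyte genes summed to 258711 to 285465 in HD-WNT5B and 310182 to 311681 in HD-Control, with 6 of 16 higher and 9 lower. Oligodendrocyte genes summed to 840824 to 889940.0 in HD-WNT5B and 364405 to 366780.0 in HD-Control, with 8 of 12 higher and 3 lower. Red blood cell genes summed to 10616 to 13197 in HD-WNT5B and 958 to 1030.0 in HD-Control, with 4 of 5 higher. Choroid plexus genes summed to 12936 to 15671 in HD-WNT5B and 1881 to 1985 in HD-Control, with 3 of 7 higher and 1 lower. Skeletal muscle genes, listed because Pgam2 and Eno3 are muscle isozymes, summed to 1256 to 1765 in HD-WNT5B and 223 to 231 in HD-Control, with 3 of 6 tested higher, 1 lower, and Myh4 and Tnnt3 at 0 in HD-WNT5B. The cortical marker Emx1 was also at 0 in HD-WNT5B. Neuron genes summed to 297042 to 330929 in HD-WNT5B and 322639 to 324257 in HD-Control, which overlapped, with 7 of 14 higher and 5 lower. Striatal projection neuron genes summed to 662424 to 689020.0 in HD-WNT5B and 606324 to 612256 in HD-Control, with 4 of 14 higher and 6 lower. Cortical excitatory neuron genes were higher in 2 and lower in 3 of 10, and oligodendrocyte precursor genes higher in 3 and lower in 1 of 7. The part of these differences in those of the members was not tested.

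HD-WNT5B against WT-Control libraries differ in genotype, virus and the library traits given above at once, and this comparison shares its libraries with both others. By limma, 15 members were higher, 14 lower and 8 not called, against 72.6% called over all genes, 34% higher and 38.6% lower. At 1.5-fold or more 11 were higher and 7 lower, against 64.3% of all genes, 29.9% higher and 34.4% lower. The replicates did not overlap in 30 members, as in 79.4% of all genes. The members' median log2 fold change was 0.032, beside -0.25 over all genes. With equal totals the median of all genes was -0.80, that of the members -0.55, and 11 members were higher and 23 lower. Of the 4 members that differed by 1.5-fold between HD-Control and WT-Control, Slc2a1 had 3993 to 5998 normalized read counts in HD-WNT5B, against 5399 to 5468 in WT-Control, and was not called (log2 -0.18, limma adjusted p = 0.29). It was called without HD-WNT5B replicate 3 (log2 -0.34, limma adjusted p = 0.0064) and with equal totals (-0.76, 0.0044). Pfkl had 6301 to 7745 in HD-WNT5B, against 6945 to 7205 in WT-Control, and was not called (log2 0.032). Its sign turns with equal totals (-0.55) and without HD-WNT5B replicate 2 or 3 (-0.018 and -0.016), and it was called without replicate 1 (0.13, limma adjusted p = 0.017). A call that misses the threshold does not show that these levels are equal. Ogdh had 23678 to 25729 in HD-WNT5B, against 20274 to 20765 in WT-Control (log2 0.26 on the deposited scale, -0.32 with equal totals). Ldha had 7931 to 9071 in HD-WNT5B, against 10949 to 11128 in WT-Control, and fell by 0.35.

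Gapdh, Pgk1, Pgam1 and Eno1 were lower in HD-WNT5B than in WT-Control libraries too, with log2 fold changes of -1.89, -2.92, -3.74 and -1.82, and Gapdh was at -2.89 with the length and GC trend taken out. Suclg1 and Gpi1 were higher by log2 2.01 and 1.58. Exons of 5 members overlap those of other genes by 5% or more of their bases, and the kit used for the libraries does not mark strand, so reads from there cannot be told apart by strand. They are Pdha1 (16.1%), Pkm (15.3%), Gpi1 (11.5%), Pfkm (10.8%) and Pfkp (5.58%).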

How the data were processed

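The unit of the files is a signal per gene and library. The deposited signal values are decimals that, from the values themselves, behave as read counts divided by 1 factor per library, made by the authors in a way not given in the sources used here. Per the submitters' processing notes, reads were aligned with STAR to mm10. Of the low values, 97.5% to 98.5% are whole multiples of 1 step per library (tolerance 0.01), which gave the depths. Estimates below 1 read also occur, so no count model was fitted, although one had been planned, and log2(value + 3) was tested in its place. The constant 3 shrinks fold changes of low genes.

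Symbols, positions, exon overlaps and transcripts came from GENCODE M21, which matched all 21853 identifiers. Aldoa has 2 identifiers, and the one with most exon bases was used. Genes with 10 or more in 3 or more libraries (15411) were tested with limma 3.58.1 in R 4.3.3, with a trend of variance on mean, in 1 fit for each pair of groups, since the groups differ in scatter. Groups came from the sample titles. A gene was called at Benjamini-Hochberg adjusted p under 0.05 over all genes tested. Procedures were tested on simulated data. Alternatives covered the scale, filter, constant, fit, length and GC trend, replicate block and single libraries.

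The members and the gene lists were chosen with earlier results of these data known, and 1 alternative, leaving out members with 40% or more shared windows, was chosen after seeing the data. All members are reported. From each pathway list, the text names at most the 2 called genes with the smallest p in HD-Control against WT-Control and the 2 in HD-WNT5B against HD-Control. Eno1b, Wnt5b and the markers at 0 were named after their values were seen. Windows of 50 bases were taken every 10 bases and matched exactly on either strand.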

Additional observations from a re-analysis of the deposited data

How the results depend on the processing

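Added constants of 1 and 10, no filter, a filter at 100 and trimmed mean (TMM) factors kept every count of called members within 1.5 times and turned no member. The count models planned as alternatives were not run, since the values are not whole reads. In HD-Control against WT-Control, the members' median was 0.056 with equal totals, 0.050 with the length and GC trend taken out and 0.073 to 0.093 with single libraries left out, and 9 members were lower with a spread shared over 9 libraries. In HD-WNT5B against HD-Control, 11 members were higher and the median was -0.57 with equal totals. There it was 0.10 with the trend taken out, -0.057 to 0.17 with single libraries left out and 0.22 without the members of 40% or more shared windows, an alternative chosen after seeing the data. In HD-WNT5B against WT-Control, 23 members were lower and the median was -0.55 with equal totals, and single libraries gave -0.016 to 0.13. With equal totals the sign turned in HD-Control against WT-Control for Suclg1 (-0.010). It turned in HD-WNT5B against HD-Control for Hk1 (-0.42), Pkm (-0.0092), Ldha (-0.28), Ldhb (-0.00031), Pdhb (-0.33), Dlat (-0.15) and Idh3b (-0.20). It turned in HD-WNT5B against WT-Control for Hk1 (-0.52), Pfkl (-0.55), Pfkp (-0.041), Dld (-0.33), Idh2 (-0.25), Idh3b (-0.47), Ogdh (-0.32) and Mdh1 (-0.47). Taking out the trend turned Sucla2 (-0.0079), Suclg1 (-0.039), Slc2a13 (0.015) and Ankrd37 (-0.068) in HD-Control against WT-Control. It turned Hk2 (0.61), Aldoc (0.14), Ldhb (-0.25), Pdha1 (0.45), Dld (0.59), Idh3b (-0.081), Mdh1 (0.10), Slc16a7 (1.30) and Gpd2 (0.32) in HD-WNT5B against HD-Control. It turned Hk2 (0.33), Aldoc (0.022), Ldhb (-0.066), Pdha1 (0.50), Idh2 (-0.31), Idh3a (0.067), Idh3b (-0.37) and Suclg2 (0.016) in HD-WNT5B against WT-Control. With single libraries left out, signs turned for Slc2a13 (-0.016 to 0.015), Pgls (-0.0065 to 0.071) and Ankrd37 (-0.015 to 0.078) in HD-Control against WT-Control and for Hk2 (-0.36 to 0.43) in HD-WNT5B against HD-Control. In HD-WNT5B against WT-Control they turned for Hk2 (-0.70 to 0.096), Pdhb (-0.20 to 0.17) and Pfkl (-0.018 to 0.13). The Hk2/Hk1 difference ran from -0.47 to 0.26 against HD-Control and from -0.73 to 0.0010 against WT-Control. The cause was not tested in any of these. Of the called members, 15 of 19 higher and 9 of 15 lower in HD-Control against WT-Control, 11 of 17 and 11 of 15 in HD-WNT5B against HD-Control, and 10 of 15 and 8 of 14 in HD-WNT5B against WT-Control kept their call and sign in every alternative run. Replicate numbers did not pair the libraries, as same-numbered deviations correlated at -0.105 to 0.0445. With the replicate block, 34 members were called in HD-Control against WT-Control (19 higher, 15 lower), 29 in HD-WNT5B against HD-Control (16 and 13) and 26 in HD-WNT5B against WT-Control (14 and 12). Counting error is largest for Hk2, the member with the lowest values in both control groups.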
